A study of Mus musculus with 2 samples.

Results

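The Mir34 and Mir449 family consists of 6 microRNA genes, Mir34a, Mir34b, Mir34c, Mir449a, Mir449b and Mir449c, and was measured here in the embryonic mouse hindbrain. The members were taken by their gene symbols, and all 6 have a row among the 1973 gene rows of each table. The minimum for detection was 10 counts in each library, and 5 of the 6 members and 356 gene rows in all reached it. The tissue was hindbrain of healthy B6NCrl embryos at embryonic day 13.5, with both sexes pooled. There are 2 libraries of RNA under 30 nucleotides, biological replicates 1 and 2, from separate biosamples with 1 donor identifier in common. They form a single group, so levels within this tissue and the spread between the libraries can be given, and no comparison of conditions.

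MicroRNAs are cut from hairpin precursors and guide the silencing complex to messenger RNAs, mainly through the seed, bases 2 to 8 of the mature strand. The mir-34 and mir-449 genes are known from cells that carry many motile cilia, such as those of the choroid plexus, the ependyma, the airways and the oviduct. There they support the making of basal bodies, in part by repressing the centriolar protein gene Ccp110 and Notch pathway genes. Mir34a is in addition a well-known target of the tumour suppressor p53 and is made in many tissues.

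The gene rows held 3006571 counts in replicate 1 and 4508244 in replicate 2, and levels are given as CPM, counts per 1000000 counts in the gene rows. Reads that mapped to several places were in no gene row and made up 33.9% and 34.5% of all reads. Mir10a and Mir10b, microRNAs of the Hox clusters, stood at 84053 ± 12284 and 37089 ± 4311 CPM (SD, n = 2). No other tissue was measured, so these levels cannot check the hindbrain label against another tissue. All 12 genes of a neuronal list were detected, against 356 of all 1973 gene rows. No messenger RNA was measured, so the name multiciliated could not be checked against other genes of such cells.

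The mature sequences below are those of RefSeq on GRCm38.p6, 5′ to 3′, with the seed in capitals. They are shown because the strands of the 5p arm define the family. Sequences of Mir449b and of miR-34c-5p are not printed here.
miR-34a-5p: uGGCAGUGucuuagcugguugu
miR-34b-5p: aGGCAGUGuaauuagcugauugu
miR-449a-5p: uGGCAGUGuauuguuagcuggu
miR-449c-5p: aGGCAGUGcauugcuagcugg

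These 4 strands share the seed GGCAGUG, which was found in no mature sequence outside the family among the 1679 names of the table. Beyond the seed they were alike to differing degrees. Positions were compared without gaps, so an inserted or missing base lowers the number of identical positions. From base 1 at the 5′ end, miR-449a-5p and miR-449c-5p were identical at 18 of 21 positions, with the substitutions U1A, U9C and U14C. The strands miR-34a-5p and miR-449a-5p were identical through base 9 and at 15 of 22 positions in all. The strands miR-34b-5p and miR-449a-5p were identical at 10 of 22 positions, the seed included.

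The opposite arms carry other seeds, and 2 of them share one, as the next sequences show.
miR-34b-3p: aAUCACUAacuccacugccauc
miR-34c-3p: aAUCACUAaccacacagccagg
miR-34a-3p: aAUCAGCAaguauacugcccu
miR-449a-3p: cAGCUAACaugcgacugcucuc
miR-449c-3p: cAGUUGCUagcugcacuacccu

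The seed AUCACUA was common to miR-34b-3p and miR-34c-3p and occurred in no other mature sequence of the table. The other 3 strands each had a seed of their own. The deposited tables count reads per hairpin gene, so a count for a member can come from either arm. The hairpin of Mir449a is printed to show what its count covers, with both mature strands in capitals.
Mir449a: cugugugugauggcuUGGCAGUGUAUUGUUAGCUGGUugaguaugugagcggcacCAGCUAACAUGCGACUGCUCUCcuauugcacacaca

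In spite of the shared seed, none of the 6 hairpins shared a stretch of 20 nt, of 18 nt or of 16 nt with any other hairpin, on either strand, in a set of 1894 that includes them. At 20 nt, 923 of the 1894 shared a stretch with another. This compares exact matches among microRNA hairpins only. Stretches with a mismatch, and matches elsewhere in the genome, were not searched. The opposite strand of all 6 members was listed at 0 counts in both libraries, while the opposite strand held 1.88% and 1.90% of the counts on gene rows as a whole.

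The members lie at 3 loci on GRCm38. Mir449c (ENSMUSG00000076146.1, chr13:113035983-113036091), Mir449b (ENSMUSG00000078027.1, chr13:113037419-113037498) and Mir449a (ENSMUSG00000065575.1, chr13:113037534-113037624) lie in this order on the plus strand. All 3 sit in intron 2 of Cdc20b, a protein-coding gene of the Cdc20 family, within 1642 bases. Mir449b and Mir449a are 35 bases apart. Within 100 kb lie Mcidas, a driver of the multiciliated cell program, 37.1 kb from Mir449a, and Ccno, a cyclin-family gene needed for making many centrioles, at 46.8 kb. The other protein-coding genes there are Gpx8, Gzma and Dhx29.

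Mir34b (ENSMUSG00000065492.1, chr9:51103562-51103645) and Mir34c (ENSMUSG00000065587.1, chr9:51103034-51103110) lie on the minus strand with 451 bases between them. They lie in intron 1 of Btg4, which runs on the opposite strand, so no host gene on their own strand was annotated. The nearest gene on their strand is 4833427G06Rik, 955 bases from Mir34c, and Layn, Gm32742 and Sik2 follow within 100 kb. Mir34a (ENSMUSG00000065493.1, chr4:150068454-150068555) lies on the plus strand outside any protein-coding gene and overlaps the start of the unclassified gene model Gm37795. Gpr157, Slc2a5, Slc2a7 and H6pd are the protein-coding genes within 100 kb of it.

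Mir449a was by far the most abundant member. It had 8657 counts in replicate 1 and 27154 in replicate 2, or 2879 CPM (exact Poisson 95% interval 2819 to 2941) and 6023 CPM (5952 to 6095). The libraries' intervals did not overlap, and replicate 2 was the higher. The mean was 4451 ± 2223 CPM (SD, n = 2), rank 39 of the 1973 gene rows, and the rank was 61 in replicate 1 and 32 in replicate 2. Next to it in mean level stood Mir18 and Mir411 above, and Mir92b and Mir423 below. These intervals cover counting error only, as do all intervals here. A further limit is that reads and not molecules were counted as far as the sources say.

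Mir34c, the second member in level, had 2471 and 6269 counts, or 822 CPM (790 to 855) in replicate 1 and 1391 CPM (1356 to 1425) in replicate 2. Here too the intervals were apart, with replicate 2 higher. Its mean of 1106 ± 402 CPM (SD, n = 2) put it at rank 89, between Mirlet7f-2 and Mir467d above and Mir188 and Mir375 below.

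Mir34a, the p53 target, was a low-level member, with 153 and 294 counts, or 50.9 CPM (43.1 to 59.6) and 65.2 CPM (58.0 to 73.1). Its intervals overlapped. The mean was 58.1 ± 10.1 CPM (SD, n = 2) at rank 234, with Mir194-2 and Mir18b just above and Mir24-2 and Mir5099 just below. Mir34b, the cluster neighbour of Mir34c, had 82 and 193 counts, or 27.3 CPM (21.7 to 33.9) and 42.8 CPM (37.0 to 49.3). These intervals were apart. Its mean was 35.0 ± 11.0 CPM at rank 260, between Mir3093 and Mir30c-2 above and Mir3061 and Mir493 below.

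The other mir-449 hairpins were close to the detection minimum, equal to 3.33 CPM and 2.22 CPM in replicates 1 and 2. Mir449c had 14 and 32 counts, or 4.66 CPM (2.55 to 7.81) and 7.10 CPM (4.86 to 10.02), with a mean of 5.88 ± 1.73 CPM (SD, n = 2). Mir3058, Mir344e, Mir1912 and Mir6958 had the nearest levels. Mir449b had 8 and 38 counts, or 2.66 CPM (1.15 to 5.24) and 8.43 CPM (5.96 to 11.6). It missed the minimum in replicate 1 and so is the member not detected.

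**Figure D1:**
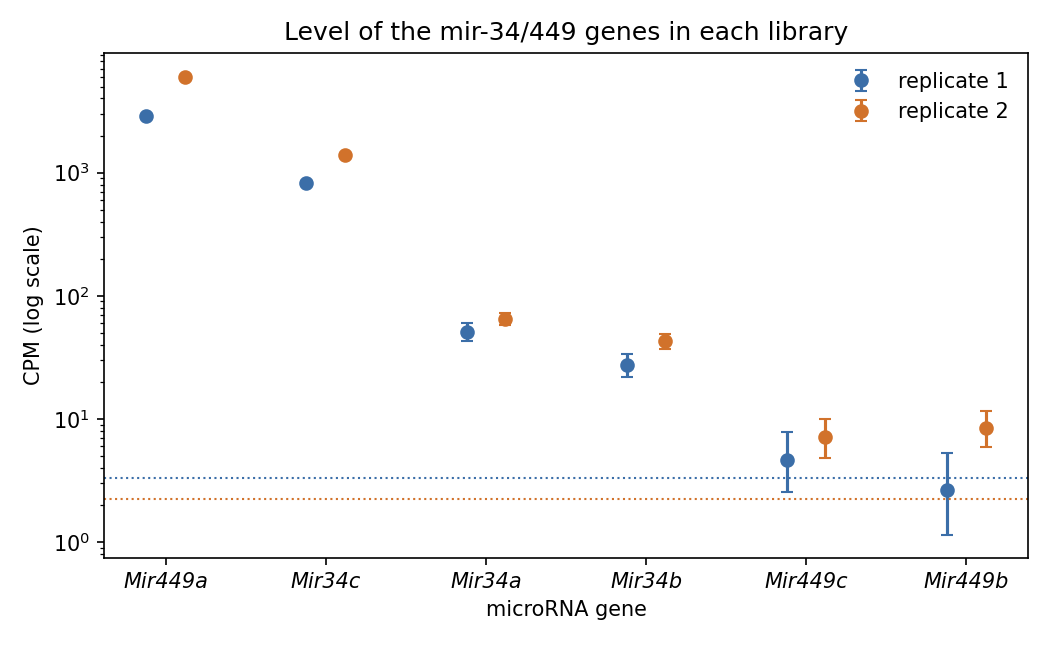
CPM of each member (log scale) in replicate 1 (blue) and replicate 2 (orange), with exact Poisson 95% intervals; dotted lines mark 10 counts in each library. Mir449a and Mir34c stand far above the other members in both libraries, and Mir449b and Mir449c lie near the detection minimum.

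The order of the counts was tested between neighbours within each library, with neighbours set by the mean CPM of the same libraries. An exact binomial test, two-sided and adjusted by Benjamini-Hochberg over 10 tests, separated Mir449a from Mir34c, Mir34c from Mir34a, Mir34a from Mir34b and Mir34b from Mir449c in both libraries. The closest of these pairs was Mir34a over Mir34b, at 1.87-fold (1.42 to 2.47) in replicate 1 and 1.52-fold (1.27 to 1.84) in replicate 2. The adjusted p-values of the exact test for it were 6.05e-06 and 6.81e-06. Mir449c and Mir449b could not be ordered: their ratio was 1.75 (0.685 to 4.81) in replicate 1 and 0.842 (0.509 to 1.38) in replicate 2. Counts were not divided by length, since the listed mature strands are 21 to 23 bases long. How well each sequence is captured in a library was not measured, so the order is one of counts and not of molecules.

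Both clusters were dominated by 1 hairpin each. Mir449a held 99.7% of the counts of the mir-449 cluster in both libraries. It exceeded Mir449b, 35 bases away, by 1082-fold (549 to 2507) in replicate 1 and 715-fold (520 to 1010) in replicate 2. Over Mir449c the excess was 618-fold (368 to 1132) and 849-fold (601 to 1241). These folds rest on 8 to 38 counts of the lower gene, and the intervals of the libraries overlapped for both.

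In the mir-34b/c cluster, Mir34c held 96.8% (exact Clopper-Pearson 95% interval 96.0 to 97.4) and 97.0% (96.6 to 97.4) of the counts. It exceeded Mir34b by 30.1-fold (24.2 to 38.0) in replicate 1 and 32.5-fold (28.1 to 37.7) in replicate 2. This ratio was therefore alike in both libraries within counting error, although the level of the cluster was not. In both clusters the last hairpin in the direction of transcription was the most abundant.

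Unequal neighbours were common in these tables, by a comparison chosen after the levels were seen. Among 74 pairs of adjacent hairpin rows on the same strand, at most 2 kb apart and with at least 1000 counts in both libraries for the higher one, the median fold between their mean CPM was 16.7. In 44 pairs it was over 10, and in 23 over 100. These include the pairs ranked 1 to 7 by fold, where the lower row stood at 0 CPM. The pair of Mir449a and Mir449b had a fold of 803 on this scale and ranked 16, and the pair of Mir34c and Mir34b had 31.6 and ranked 35. Some of these pairs hold hairpins with near-identical copies, whose reads are partly in no gene row, and their part in the folds was not tested.

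**Figure D2:**
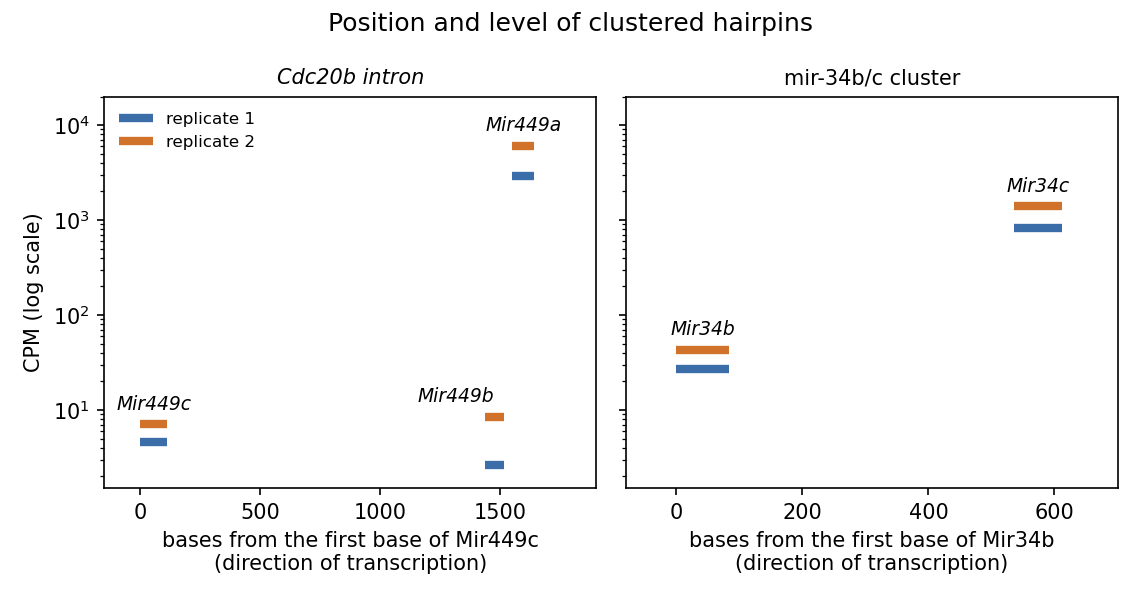
Each bar spans a hairpin at its distance in bases from the first hairpin of its cluster, drawn in the direction of transcription, at its CPM (log scale) in replicate 1 (blue) and replicate 2 (orange). Mir449a and Mir34c, the last hairpins, lie far above their neighbours in both libraries.

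The family as a whole summed to 3787 and 7537 CPM in replicates 1 and 2, a mean of 5662 ± 2652 CPM (SD, n = 2). That is 0.379% and 0.754% of the counts. Of the family's counts, Mir449a held 76.0% (75.2 to 76.8) in replicate 1 and 79.9% (79.5 to 80.3) in replicate 2, a mean of 78.0% ± 2.74. Mir34c held 21.7% (20.9 to 22.5) and 18.4% (18.0 to 18.9), and Mir34a 1.34% (1.14 to 1.57) and 0.865% (0.769 to 0.969). Each of Mir34b, Mir449b and Mir449c held less than Mir34a. The makeup of the family thus differed between the libraries by more than counting error, with a larger part of Mir449a in replicate 2.

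The members were then compared between the libraries as log2 ratios, replicate 2 over replicate 1, after trimmed-mean (TMM) scaling with edgeR. Each ratio sets 1 library against 1 library and has no replicate check, so it describes these libraries. In bulk tissue, fewer cells of a type and less RNA per cell cannot be told apart. The ratio was 1.03 (counting interval 1.00 to 1.07) for Mir449a, 0.72 (0.66 to 0.79) for Mir34c, 0.62 (0.24 to 1.01) for Mir34b, 0.57 (-0.37 to 1.59) for Mir449c and 0.32 (0.04 to 0.62) for Mir34a. Mir449b, not detected by the count minimum, had 1.63 (0.51 to 2.94).

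All 6 values lay above 0, and the interval of Mir449c included 0. Among the 356 detected genes, 172 lay above 0, with a median of -0.01 and a median absolute log2 ratio of 0.18. The common biological coefficient of variation was 0.141. The 5 detected members had a median of 0.62. Members of 1 cluster share a locus, so these values are not independent of each other.

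Past 1.5-fold higher in replicate 2 were 3 of the 5 detected members, Mir449a, Mir34c and Mir34b, against a background of 3.65% of the detected genes (13 of 356). No member was past 1.5-fold lower, where the background was 5.90% (21 of 356). Mir34b, at 1.53-fold (1.18 to 2.01), lay just inside this limit, and Mir449c, at 1.49-fold (0.772 to 3.02), just outside. At 2-fold Mir449a alone remained among the members, with 2.04-fold (1.99 to 2.09), and 2 detected genes in all were past that fold in this direction. Mir449a had the second-highest ratio of all detected genes, Mir34c ranked 10 and Mir34b 13, while Mir449c ranked 15 and Mir34a 37.

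By the same exact test on the counts of both libraries, adjusted over all 356 detected genes, 3 of 5 members were higher in replicate 2, against a background of 20.2% (72 of 356). These were again Mir449a, Mir34c (adjusted p = 2.97e-104 by the exact test) and Mir34b (adjusted p = 0.00321 by the exact test). Mir34a, with an adjusted p of 0.0556, and Mir449c, with 0.358, did not pass the exact test. The test takes counting error as the only error, and 161 of the 356 genes passed it in either direction.

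**Figure D3:**
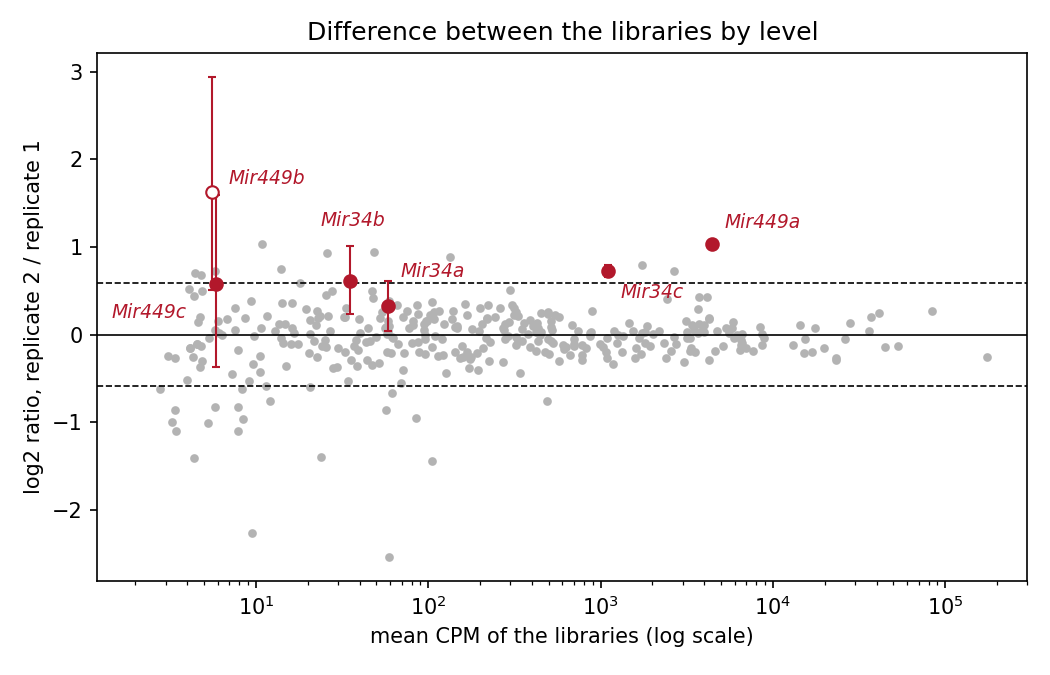
Log2 ratio of the libraries against mean CPM (log scale) for the detected genes (grey) and the members (red, with 95% counting intervals; the open circle is Mir449b, below the count minimum). Dashed lines mark 1.5-fold; Mir449a and Mir34c lie above the upper line at high levels, where few grey points do.

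The loci differed in how far they moved between the libraries. The mir-449 cluster as a sum went from 2887 to 6039 CPM, a log2 ratio of 1.03 (1.00 to 1.07). The mir-34b/c cluster went from 849 to 1433 CPM, a log2 ratio of 0.72 (0.65 to 0.79), and Mir34a had 0.32. Between these 3 loci the ratio of Mir449a to Mir34c went from 3.50 (3.35 to 3.67) in replicate 1 to 4.33 (4.21 to 4.45) in replicate 2. That of Mir34c to Mir34a went from 16.2 (13.7 to 19.1) to 21.3 (19.0 to 24.1), where the intervals just touch. The ratio of Mir449a to Mir34a went from 56.6 (48.2 to 66.8) to 92.4 (82.3 to 104), with intervals apart. Without Mir449a the family still summed to 907 and 1514 CPM, a log2 ratio of 0.70 (0.64 to 0.77).

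Outside the family, the detected genes whose log2 ratio was closest to that of Mir449a were sought among the 268 whose mean count reached 100. The measure is the absolute difference of the log2 ratios over 2 libraries, so likeness here means only a similar step. Mir206, known from skeletal muscle, was closest at 0.94, followed by Mir196b of the HoxA cluster at 0.93. Mir1264 had 0.88 and Mir1298 0.73, and both lie within Htr2c, a serotonin receptor gene strongly expressed in the choroid plexus. Mir204, in Trpm3 and abundant in choroid plexus epithelium, had 0.79. In level, Mir204 went from 1252 to 2216 CPM and Mir1298 from 1983 to 3366 CPM, while Mir206 and Mir196b stayed below 65 CPM in both libraries.

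The 13 detected genes past 1.5-fold higher in replicate 2 thus held 3 members and these 5 genes. The other 5, named after their values were seen, were Mir1912, a further gene within Htr2c, Mir504, Mir5113, Mir1947 and Gm23134. All 5 had fewer than 100 counts in each library.

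Values of other microRNA lists that differed between the libraries are given beside those of the family. The lists were chosen with earlier results of these data known. The choroid plexus list of Mir204 and Mir211 was detected in full and summed to 1256 and 2221 CPM. Its log2 ratios were 0.79 and 0.50, and 1 of 2 genes was past 1.5-fold higher, against 3.65% of detected genes. That gene, Mir204, was already named above for its ratio, so its call here is not a separate finding. Mir211, at 12 and 26 counts, did not pass the exact binomial test (adjusted p = 0.545). The part of choroid plexus cells in the family's values was not tested.

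Of the Hox cluster list, 4 of 6 genes were detected and summed from 111478 to 135699 CPM over all 6. Their median log2 ratio was 0.34, with Mir10a at 0.26 and Mir10b at 0.20. Of the 4, 1 was past 1.5-fold higher, Mir196b, against 3.65% (13 of 356) of all detected genes. The list of the mir-200 family with the skin microRNAs Mir203 and Mir205 was detected in 7 of 7 genes and went from 801 to 688 CPM. There 4 of 7 were past 1.5-fold lower, against 5.90% (21 of 356) of all detected genes. The median of the list was -0.86, although Mir203, its highest gene, lay at -0.07 and Mir429 at -0.95.

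The muscle and heart list was detected in 3 of the 8 genes with a row, and Mir1a-1, Mir133a-1 and Mir133a-2 were listed at 0 counts in both libraries. These 3 have near-identical copies in the genome, and reads that map to several places are in no gene row, so their zeros do not bear on the presence of muscle. The list went from 152 to 90.1 CPM, with Mir208b at -2.54, Mir208a at -2.27 and Mir206 at 0.94. Of its 3 detected genes, 2 were past 1.5-fold lower and 1 higher, against 5.90% and 3.65% of all detected genes. The blood list, detected in 6 of 6 genes, went from 497 to 460 CPM with a median of 0.04, and 1 of its 6 genes was past 1.5-fold lower. This was the erythroid Mir451a at -1.44, while Mir144, its cluster neighbour, had 0.01 and Mir486, also known from red blood cells, had -0.33, and neither of these passed the exact binomial test. Its highest genes by mean level, Mir155 and Mir223, had 0.35 and 0.07. The part of any of these lists in the family's values was not tested.

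The neuronal list had nearly equal sums, with 11252 and 11251 CPM, a median of 0.01 and none of 12 genes past 1.5-fold. Of all detected genes, 3.65% were past it higher and 5.90% lower. By the exact binomial test 2 of the 12 were higher and 4 lower, against 72 and 89 of the 356 detected genes. Mir128, Mir129, Mir138 and Mir218 are each listed as a pair of genes, and reads that map to several places are in no gene row. Mir137 and Mir153 were the highest genes of the neuronal list, at 0.00 and -0.27. The 3 genes of the sensory cluster, known from hair cells, had a median of 0.04, with Mir182 at 0.02 and Mir183 at 0.19, and the 3 endothelial and mural genes had -0.12, with Mir126a at -0.15 and Mir143 at -0.12. None of these was past 1.5-fold.

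Mir34a was also set beside other microRNAs known to respond to p53. Of 9 such genes with a row, 7 were detected and none was past 1.5-fold in either direction, against 34 of the 356 detected genes. At that share, none among 7 is not unusual. The median log2 ratio of the 7 was 0.02, and the sum over the 9 was 12760 and 12412 CPM. Mir143, at 6490 ± 281 CPM (SD, n = 2), had -0.12, and Mir15a, at 2333 ± 64.3 CPM, had -0.09, both lower by the exact binomial test. By that test 89 of the 356 detected genes were lower. Mir107 had 0.02, Mir16-1 0.02, Mir192 0.07, Mir194-2 0.09 and Mir145a -0.10. Mir215 had 4 and 6 counts and Mir194-1 had 2 and 1, under the count minimum. Mir194-1, Mir194-2 and Mir16-1 have near-identical copies, so their counts are uncertain. In level Mir34a, at 58.1 CPM, was close to Mir194-2 at 58.8 ± 3.70 CPM, and the other 6 detected genes had higher means.

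**Figure D4:**
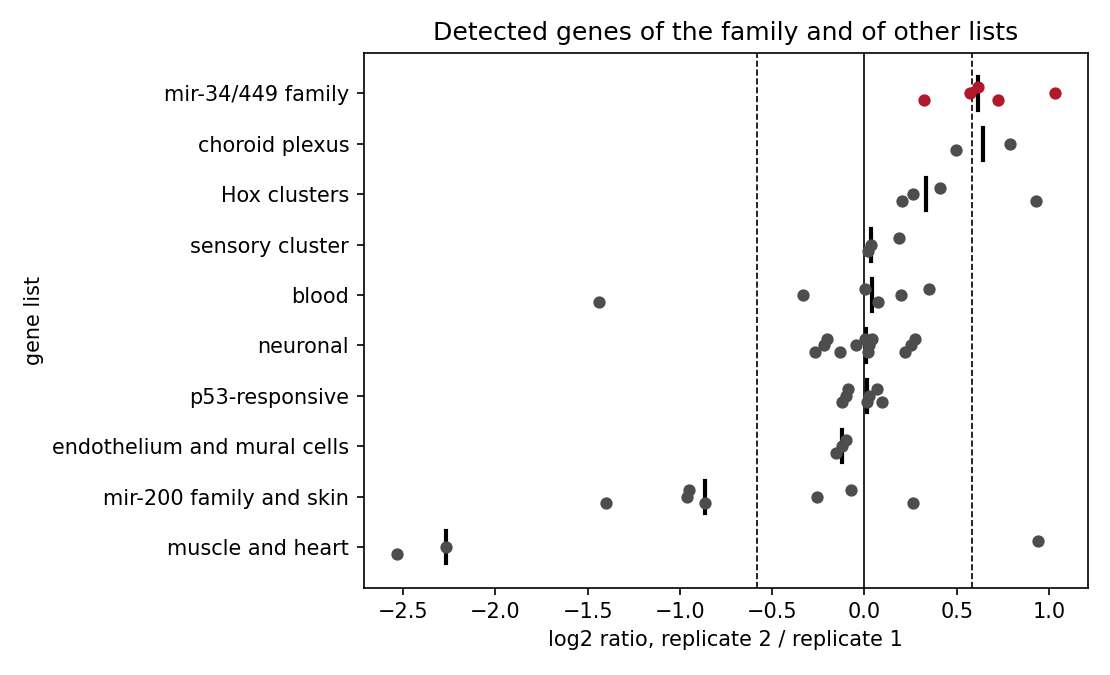
Log2 ratio of the libraries for each detected gene (points) of the family (red) and of 9 other lists (grey), with the median of each list as a black bar and dashed lines at 1.5-fold. All detected genes of the family and of the choroid plexus, Hox and sensory lists lie to the right of 0, the sensory ones close to it, most mir-200 genes to the left, and the neuronal and p53-responsive genes around 0.

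The mir-449 hairpins share the host Cdc20b, so the window around its start is shown, from 250 bases before to 50 after the start in RefSeq on GRCm38.p6 (chr13:113035129-113035428, plus strand). In GENCODE M21 the annotated gene starts earlier, at base 113035111, so the whole window lies within it. No promoter activity was measured here. Motifs of factors tied to multiciliated cells were searched on both strands and are in capitals: TTCCCGC for E2F, GTTNCC for an RFX half-site and GTAAACA for forkhead factors such as Foxj1.
Cdc20b: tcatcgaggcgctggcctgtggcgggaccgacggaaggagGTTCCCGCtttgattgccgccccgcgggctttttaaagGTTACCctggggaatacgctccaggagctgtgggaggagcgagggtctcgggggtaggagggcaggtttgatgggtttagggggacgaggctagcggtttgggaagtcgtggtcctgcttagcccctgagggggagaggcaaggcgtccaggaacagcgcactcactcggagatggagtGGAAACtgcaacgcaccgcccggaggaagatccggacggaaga

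The E2F letters occurred 1 time, starting 209 bases before the RefSeq start, and overlap 1 of 3 matches to the RFX half-site. Of 32851 windows of this length, 4.60% held the E2F letters, 45.3% the RFX half-site and 3.65% the forkhead letters, which were not in this window. The window has a GC content of 63.0%, and windows were not matched for it. A match is a description of the sequence and not a site of binding.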

How the data were processed

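The authors deposited 1 table of raw counts for each library, with reads per microRNA gene on mm10 and GENCODE M4, per the accompanying README. Aligner, counter and trimming: not given in the sources used here. The annotated-strand column was used. Summary rows (51.0% and 52.5% of all reads) stayed out of library sizes. Names and coordinates came from GENCODE M21 on GRCm38, which matched 1894 of 1973 rows and all 6 members. Mature sequences, 9 strands of 5 members, and the promoter came from RefSeq (GRCm38.p6).

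With 1 group no quasi-likelihood test could be fitted. Libraries were compared with TMM scaling (edgeR 4.0.16), counting intervals (95%), a limit of 1.5-fold, and an exact binomial test (scipy 1.17.1) with Benjamini-Hochberg adjustment over genes with at least 10 counts in both libraries, at 0.05. The script was tested on simulated data. Alternatives were totals, DESeq2 1.42.0 size factors, other count minimums, the either-strand column, other denominators and leaving out a library.

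Named genes were the members, the 5 genes closest to Mir449a in log2 ratio, the 2 genes above and below each detected member in mean level, genes within 100 kb, and list genes. Members and lists were chosen with earlier results of these data known. P-values cover counting error only.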

Additional observations from a re-analysis of the deposited data

How the results depend on the processing

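No log2 ratio of a member changed sign with totals, DESeq2 size factors or the either-strand column. Each of these settings moved all 6 members by the same small step, as for Mir34a from 0.32 to 0.36 with totals. No sign could thus have changed, so this is no check of the ratios. With all reads as the denominator, the family summed to 2718 CPM in place of 5662, since that denominator includes reads on no gene row, and all 6 members had lower means, among them Mir449b with 2.65 CPM in place of 5.54. In place of 34 of 356 genes past 1.5-fold in either direction, there were 191 of 587 with no filter beyond 1 count. With at least 50 counts there were 16 of 290, and at 2-fold 10 of 356. The number of members past the limit, all higher in replicate 2, fell from 3 to 1 at 2-fold, where 2 of 356 genes were higher. With totals in place of TMM the number of members was 4, since Mir449c reached 0.61, against 15 of 356 genes past 1.5-fold higher. With no filter beyond 1 count it was 4 through Mir449b, against 85 of 587 genes. The log2 ratio of Mir449a was 1.03 with DESeq2 size factors and 1.06 with totals, and the median of all detected genes was -0.02 and 0.02. Without 1 library, a level is the value of the other, so leaving out a library says nothing more than the spread given for each member. Depth limits Mir449b and Mir449c most, and a count of 0 would allow 0.998 CPM in replicate 1 and 0.665 CPM in replicate 2.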
